A study of Homo sapiens with 8 samples.

Results

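Tubulin is the subunit of microtubules, the cytoskeletal polymers that form the mitotic spindle. α-tubulin and β-tubulin pair as heterodimers that polymerise, and γ-tubulin sits in ring complexes that start new microtubules. Vertebrates carry several genes, called isotypes, for the α and β subunits, which differ mostly near the end of the protein. Cells also adjust tubulin mRNA to the supply of free subunits: the factor TTC5 recognises the first residues of a nascent tubulin chain on the ribosome and leads to decay of the mRNA being translated. The tubulin genes described here are the 10 rows of the deposited gene table, out of 13471, that carry the symbols of 4 α-tubulin genes (TUBA1A, TUBA1B, TUBA1C and TUBA4A), 5 β-tubulin genes (TUBB, TUBB2A, TUBB3, TUBB4B and TUBB6) and 1 γ-tubulin gene (TUBG1). They were chosen by name, with earlier results of these data known, and all 10 were found.

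The samples are hTERT-RPE1, a telomerase-immortalized human line from retinal pigment epithelium, and RNA was sequenced with and without immunoprecipitation (IP) by an antibody to hnRNP U, the nuclear RNA- and DNA-binding protein also known as SAF-A. The 2 interphase groups, without IP and with IP, were blocked for 24 h with 2 mM thymidine, an inhibitor of DNA replication. The 2 mitotic groups, without IP and with IP, had the same 2 mM thymidine for 24 h, then 6 h without it and an overnight incubation in S-trityl-L-cysteine (STLC), an inhibitor of the spindle motor Eg5 that holds cells with a monopolar spindle. All 4 groups thus share the thymidine block, but only the mitotic groups had the release and STLC. Phase and drug treatment therefore cannot be told apart in any comparison of mitosis with interphase. Each group has 2 libraries, all of cleared detergent lysate and depleted of ribosomal RNA. Levels are given in FPKM (fragment counts corrected for the length of a transcript and the size of a library), and mean ± SD is over n = 2 libraries. No control-antibody IP is analysed here, and so hnRNP U-bound RNA and bead carry-over cannot be told apart. Nothing in the labels says that replicates came from separate cultures, so p-values measure the spread between these libraries, which may be technical.

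The 3 α genes TUBA1A, TUBA1B and TUBA1C lie together on chromosome 12 and are nearly identical, which bears on every α value below. The first 45 coding bases of TUBA4A, the 5 β genes and TUBG1 are shown because they encode the start of the protein, the stretch that TTC5 reads in α- and β-tubulin. Capitals mark the first 12 bases, the codons of the first 4 residues, and sequences are 5′ to 3′ from GENCODE 29 transcripts (GRCh38).
TUBA4A: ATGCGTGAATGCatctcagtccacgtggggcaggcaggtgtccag
TUBB: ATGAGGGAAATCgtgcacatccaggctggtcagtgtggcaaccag
TUBB2A: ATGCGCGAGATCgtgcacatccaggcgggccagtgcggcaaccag
TUBB3: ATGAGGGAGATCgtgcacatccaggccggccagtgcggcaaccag
TUBB4B: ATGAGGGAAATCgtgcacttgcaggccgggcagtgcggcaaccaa
TUBB6: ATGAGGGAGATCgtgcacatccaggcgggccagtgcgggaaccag
TUBG1: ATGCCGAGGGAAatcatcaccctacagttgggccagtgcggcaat

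The coding regions of TUBA1B and TUBA1C are 97.3% identical, and those of TUBA1B and TUBA1A 97.2%. Of the 50-base stretches of the TUBA1B transcript, 56.6% occur unchanged in another of the 10 genes. This share was 40.9% for TUBA1A, 25.1% for TUBA1C, 10.1% for TUBB2A, 8.66% for TUBB3, 5.92% for TUBB4B and 0.993% for TUBB6, and TUBA4A, TUBB and TUBG1 shared no such stretch with another of the 10. Counting other genes as well, TUBB2A shared 60.3% with TUBB2B, TUBG1 shared 29.1% with TUBG2, and TUBB shared 16.1% with the pseudogene TUBBP1. Most of TUBB3 (89.4%) is repeated in AC092143.1, a gene annotated at the same locus. How reads shared between genes were assigned is not given in the sources used here, so the split of α values among TUBA1A, TUBA1B and TUBA1C is uncertain, and their sum is given beside them.

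Of the 10 genes, 3 share their interval in the deposited table (build hg38) with a neighbour on the opposite strand, and the library kit keeps strand, but whether counting used it is not stated. TUBA4A shares chr2:219245469-219272188 with STK16, TUBB6 shares chr18:12307668-12377276 with AFG3L2, and TUBG1 shares chr17:42579507-42615238 with FAM134C. The other 7 have an interval of their own: TUBA1B at chr12:49127783-49131521, TUBA1A at chr12:49184794-49189324, TUBA1C at chr12:49227925-49273338, TUBB2A at chr6:3153665-3157549, TUBB at chr6:30720200-30725426, TUBB4B at chr9:137241258-137247792 and TUBB3 at chr16:89922008-89936097. All 10 are annotated as protein-coding.

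As a check of the libraries, replicates of a group had log2 values that correlated across genes with Pearson's r between 0.989 and 0.995, and total fragments per library are unknown. The 10 genes with the highest FPKM held 58.4% to 63.0% of all FPKM where no IP was done and 12.4% to 20.6% in the IP, and its part in the results was not tested. All 5 mitosis markers (CCNB1, PLK1, AURKA, CDC20 and TOP2A) were called higher in mitosis without IP, and their summed level was 132 to 134 FPKM in interphase and 507 to 541 FPKM in mitosis. Markers of S phase were mixed: of 4 (CCNE2, MCM5, PCNA and RRM2), 1 was called higher and 2 lower in mitosis without IP. Their summed level without IP was 169 to 209 FPKM in interphase and 143 to 174 FPKM in mitosis, which overlapped. Of 9 markers of mature retinal pigment epithelium 3 were in the table. MITF had 7.06 to 9.60 FPKM without IP and 10.6 to 33.2 FPKM in the IP. OTX2 had 3.33 to 8.71 FPKM without IP and 9.96 to 22.2 FPKM in the IP. The pigment gene PMEL averaged 0.0839 FPKM over the 8 libraries, and RPE65, RLBP1, BEST1, TYR, TYRP1 and TTR were not among the genes of the table. None of 5 markers of other cell types (EPCAM, CDH1, PTPRC, PECAM1 and HBA1) was among the genes of the table, and TERT stayed between 0.0225 and 0.359 FPKM.

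The tubulin genes spanned a wide range of levels. In interphase without IP, TUBA1B was the highest of the 10 at 519 ± 41.0 FPKM and TUBB followed at 252 ± 24.9 FPKM. TUBA1A (125 ± 16.5), TUBA1C (124 ± 10.7), TUBB6 (121 ± 12.2) and TUBB4B (118 ± 17.2) overlapped in their libraries, so their order is not resolved. TUBB3 had 84.5 ± 6.23 FPKM, TUBG1 12.1 ± 1.5, TUBA4A 6.04 ± 0.358 and TUBB2A 4.75 ± 0.614. TUBA1B lay above 97.8% of all genes or more in each of the 8 libraries and TUBB above 96.3% or more. TUBA4A and TUBB2A were low, with at most 48.0% and 46.7% of genes below them in any library.

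**Figure D1:**
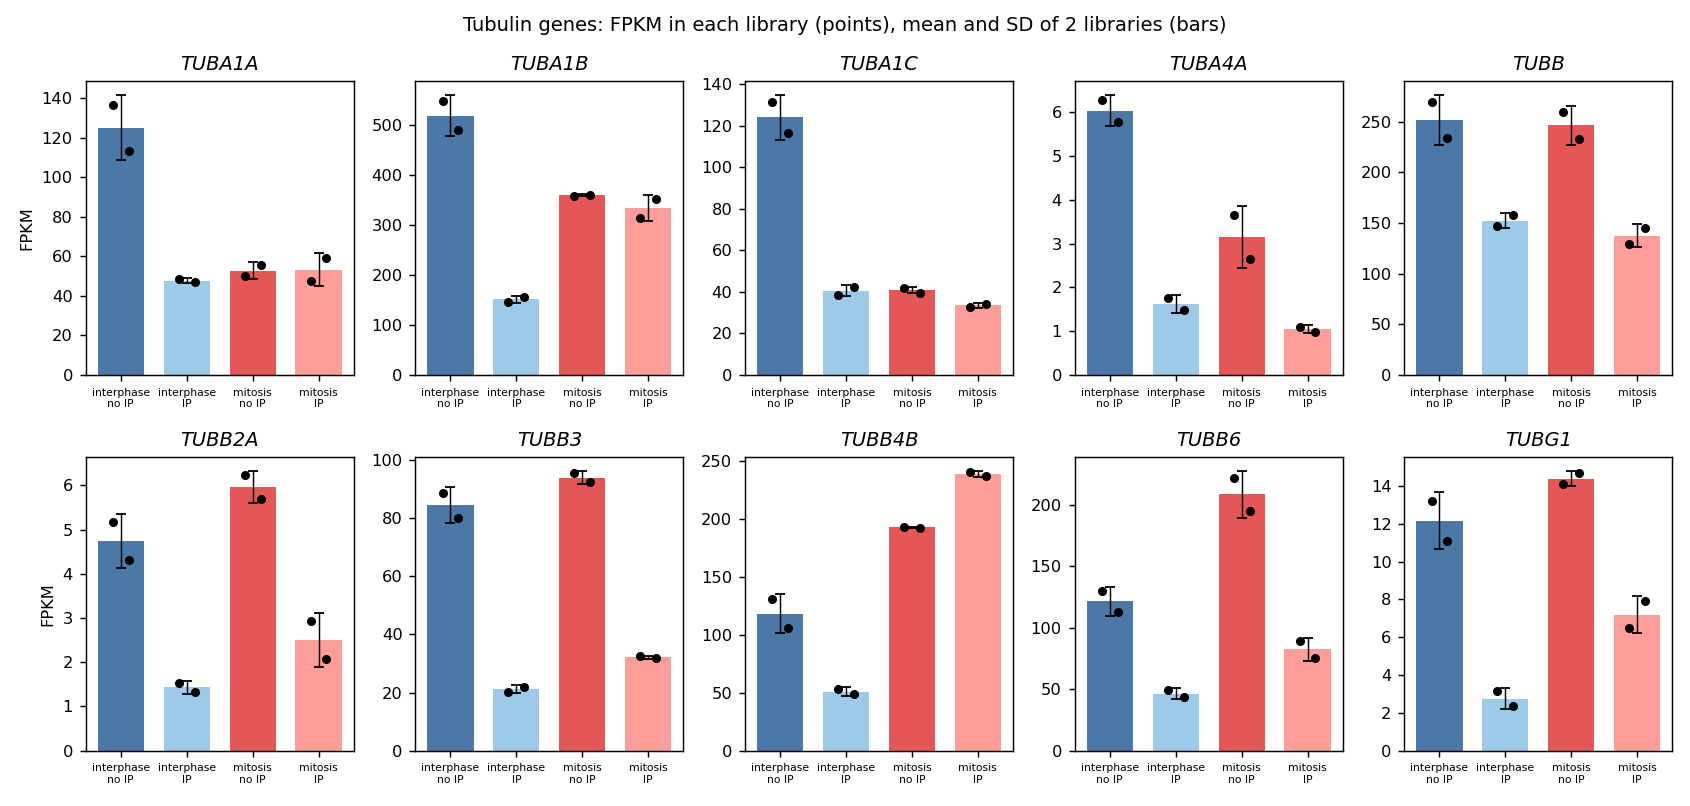
FPKM (vertical axis, from 0, scaled for each gene) of the 10 tubulin genes in the 4 groups; points are libraries, bars the mean of 2 and error bars the SD. In each panel, in FPKM as deposited, the interphase IP lies below interphase without IP, and TUBB4B is the gene whose 2 mitotic IP libraries (241 and 237 FPKM) lie above those of mitosis without IP.

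The first question was how tubulin mRNA differed between the hnRNP U IP and RNA without IP in interphase. In FPKM as deposited all 10 tubulin genes were lower in the IP, but not once libraries were scaled to equal FPKM totals, where 0 were called lower and 2 higher. On the deposited scale they had log2 fold changes between -1.95 (TUBB3) and -0.72 (TUBB) and a median of -1.40, against a median of 0.02 over all genes. In limma on log2(FPKM + 1), with Benjamini-Hochberg adjustment over all genes and a threshold of 0.05, 10 of 10 were called lower and 0 higher (also 0 at an unadjusted p below 0.05). Of all genes 37.0% were called lower, 37.6% higher and 74.6% in either direction. When each library was corrected for its trend with GC content and length of transcripts, 6 of 10 passed, TUBB (-0.26) and TUBB6 (-0.11) no longer did, and TUBB2A (0.17) and TUBB4B (0.04) changed sign without passing. After quantile normalization TUBB (-0.10) did not pass either. Median centring moved the median of all genes by 0.12 in this comparison, and all 10 were still called lower.

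The FPKM values of a library add up to 1087270 and 1138350 in interphase without IP and to 349389 and 321539 in the interphase IP, and to 1249970 and 1017310 in mitosis without IP and 459661 and 379709 in the mitotic IP. The 10 tubulin genes took 0.123% ± 0.0158 of this total in interphase without IP and 0.154% ± 0.0116 in the interphase IP, 0.108% ± 0.0125 in mitosis without IP and 0.222% ± 0.0381 in the mitotic IP. Their share of the total was thus higher in the IP, while their FPKM was lower. Scaling libraries to equal totals, chosen after seeing the data, moved the median of all genes by 1.15 in interphase and 0.94 in mitosis on the log2 scale. All-gene calls in interphase went from 5068 higher and 4983 lower to 9533 higher and 1126 lower, and in mitosis from 4425 higher and 4269 lower to 9648 higher and 281 lower. TUBB (1.01) and TUBB4B (0.52) were then called higher in the interphase IP, and the other 8 lay between -0.37 (TUBG1) and 0.34 (TUBB6) without passing. The median of the 10 was 0.06 there, against 1.17 over all genes, so they stayed below the median gene on both scales. Directions in the IP given below, also for genes other than tubulins, are on the deposited scale.

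Among the α genes, TUBA1B, the most abundant isotype, had 548 and 490 FPKM without IP and 146 and 156 FPKM in the interphase IP. Both IP libraries were far below both libraries without IP, a 3.43-fold lower mean. Its log2 fold change was -1.77 (SE 0.16, limma adjusted p 9.39e-06). TUBA1A, the isotype known for its high expression in developing neurons, had 137 and 113 FPKM without IP and 48.4 and 46.8 FPKM in the IP, a log2 fold change of -1.37 (SE 0.14). TUBA1C had 132 and 117 FPKM without IP and 38.6 and 42.4 FPKM in the IP, a log2 fold change of -1.59 (SE 0.11). The 3 near-identical genes were thus lowered by 2.63-fold (TUBA1A) to 3.43-fold (TUBA1B). Their summed FPKM, which still depends in part on how reads were shared out because their transcripts differ in length, went from 768 ± 68.2 to 239 ± 8.64 FPKM, a ratio of IP to no IP of 0.286 in replicate 1 and 0.341 in replicate 2. TUBA4A, a low-abundance α gene, had 6.29 and 5.79 FPKM without IP and 1.76 and 1.48 FPKM in the IP, a log2 fold change of -1.43 (SE 0.14). STK16, a kinase gene in the same interval, fell by 1.39 on the log2 scale.

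The β genes differed more among themselves in the interphase IP. TUBB, the most abundant β isotype here, had 269 and 234 FPKM without IP and 147 and 158 FPKM in the IP. It had the smallest decrease of the 10, with a log2 fold change of -0.72 (SE 0.14, limma adjusted p 0.00149). TUBB3, the isotype best known as a neuronal marker, had 88.9 and 80.1 FPKM without IP and 20.2 and 22.0 FPKM in the IP. This was a 4.0-fold lower mean, with a log2 fold change of -1.95 (SE 0.10, limma adjusted p 6.02e-07) at percentile 7.61 of all genes. TUBB4B, a broadly expressed isotype, had 130 and 106 FPKM without IP and 53.5 and 48.4 FPKM in the IP (log2 fold change -1.19, SE 0.13). TUBB6, a divergent β isotype, had 130 and 113 FPKM without IP and 49.5 and 43.3 FPKM in the IP (-1.37, SE 0.14). TUBB2A, here the lowest of the β genes, had 5.18 and 4.31 FPKM without IP and 1.54 and 1.32 FPKM in the IP (-1.24, SE 0.15). In words, every β gene was lower in both IP libraries, but TUBB kept the largest part of its level. The summed β level went from 580 ± 61.1 to 272 ± 0.551 FPKM, a smaller reduction (2.13-fold) than that of the summed α level (3.21-fold), a difference that was not tested.

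TUBG1, the main γ-tubulin gene of dividing cells, had 13.2 and 11.1 FPKM without IP and 3.14 and 2.35 FPKM in the interphase IP. Its mean was 4.43-fold lower, the largest ratio of the 10, with a log2 fold change of -1.82 (SE 0.15, limma adjusted p 6.04e-06). FAM134C, in the same interval, fell by 0.50 on the log2 scale, where TUBG1 fell by 1.82. For TUBB6 the neighbour AFG3L2, a mitochondrial protease gene, fell by 0.41 on the log2 scale. The near copy TUBG2 went from 2.09 and 1.53 FPKM to 0.954 and 0.500 FPKM, and the near copy of TUBB2A, TUBB2B, from 0.363 and 0.30 to 0.181 and 0.0597 FPKM. Both were called lower (log2 fold changes -0.71 and -0.25), at levels near or below the pseudocount of 1.

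The same comparison in mitosis gave another picture, since some tubulin genes were at nearly equal levels with and without IP. Limma called 7 of the 10 lower and 0 higher (1 higher at an unadjusted p below 0.05, TUBB4B), while 31.7% of all genes were called lower, 32.8% higher and 64.5% in either direction. With equal FPKM totals 5 were called higher (TUBA1A, TUBA1B, TUBA1C, TUBB and TUBB4B) and 0 lower, with a median of 0.49 against 0.95 over all genes. On the deposited scale their median log2 fold change was -0.88, against 0.01 over all genes. Of the 7 genes with a file interval of their own, 4 were called lower. TUBB4B was called higher after quantile normalization (7 others lower), median centring and removal of length and GC trends (6 others lower in each).

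TUBA1A had 49.8 and 55.6 FPKM without IP and 47.3 and 59.1 FPKM in the mitotic IP. The groups overlapped, and the log2 fold change of 0.01 (SE 0.14) did not pass the threshold. TUBA1B had 358 and 361 FPKM without IP and 315 and 352 FPKM in the IP, both slightly below, with a log2 fold change of -0.11 (SE 0.16, limma adjusted p 0.56). Its value was 0.53 after quantile normalization and 0.20 with length and GC trends removed, neither passing. TUBA1C had 41.8 and 39.7 FPKM without IP and 32.7 and 34.3 FPKM in the IP. Its log2 fold change of -0.28 (SE 0.11, limma adjusted p 0.0457) rested on a narrow margin: it missed the threshold when any 1 of the 4 mitotic libraries or either library of interphase without IP was left out (-0.31 to -0.24), and after median centring or removal of length and GC trends. The summed level of these 3 genes came to 453 ± 4.62 FPKM without and 420 ± 35.4 FPKM with the IP. TUBA4A stood apart from them, with 3.66 and 2.65 FPKM without IP and 1.10 and 0.982 FPKM in the IP (log2 fold change -1.01, SE 0.14, limma adjusted p 0.000257). STK16 in its interval averaged 8.79 ± 0.784 FPKM without IP, 10.7 ± 0.781 FPKM with it, and did not pass, so the TUBA4A difference ran against that of its neighbour.

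Of the β genes, 4 of 5 were called lower in the mitotic IP. TUBB had 260 and 233 FPKM without IP and 129 and 146 FPKM in the IP, a log2 fold change of -0.84 (SE 0.14). TUBB6 had 222 and 195 FPKM without IP and 89.2 and 75.5 FPKM in the IP (-1.33, SE 0.14). AFG3L2, which shares the TUBB6 interval, was called higher (0.29), opposite to TUBB6. TUBB3 had 95.7 and 92.4 FPKM without IP and 32.5 and 31.8 FPKM in the IP, the largest decrease of the 10 (-1.52, SE 0.10, limma adjusted p 8.31e-06). TUBB2A had 6.22 and 5.70 FPKM without IP and 2.93 and 2.07 FPKM in the IP (-1.0, SE 0.15). The exception was TUBB4B, with 193 and 192 FPKM without IP and 241 and 237 FPKM in the IP. Both IP libraries were above both others, by a mean of 23.9%, yet the log2 fold change of 0.31 (SE 0.13, limma adjusted p 0.0684) did not pass. It passed with the replicate number as a block (adjusted p 0.0431) and was larger after median centring (0.40), quantile normalization (0.62), removal of length and GC trends (0.82) and scaling to equal totals (1.73), where it also passed; over these and the other alternatives its adjusted p ran from 1.57e-05 to 0.179. TUBG1 had 14.1 and 14.7 FPKM without IP and 6.49 and 7.90 FPKM in the IP, a 2.00-fold lower mean with a log2 fold change of -0.91 (SE 0.15, limma adjusted p 0.000623).

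**Figure D2:**
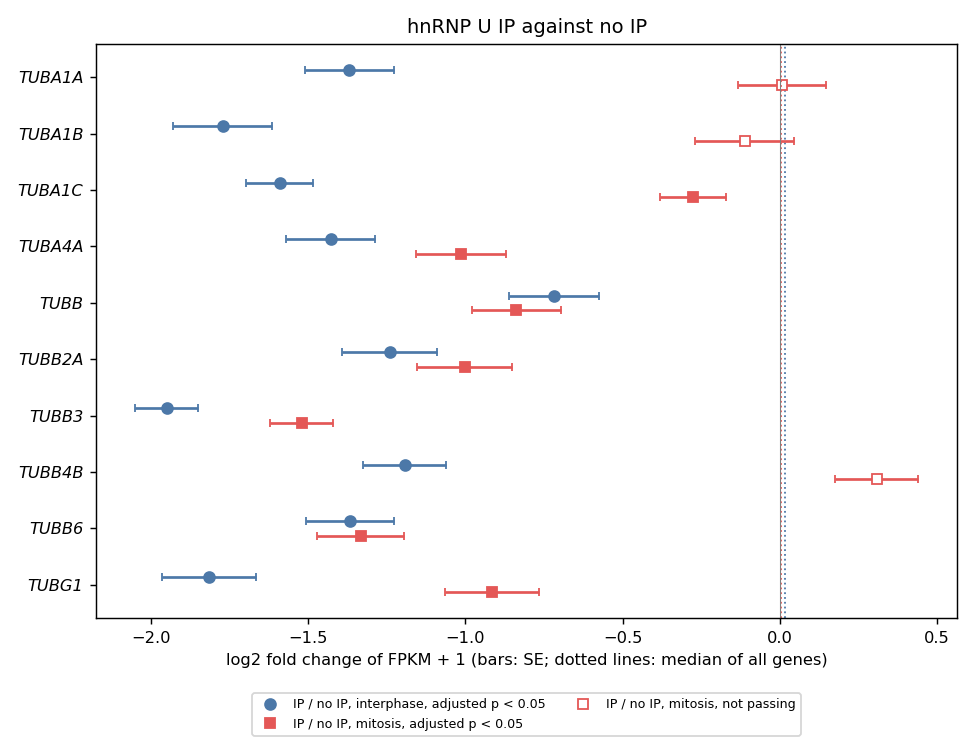
Log2 fold change of FPKM + 1 (horizontal axis) in the hnRNP U IP against no IP for each tubulin gene, in interphase (circles) and mitosis (squares), with the SE as bars; filled symbols passed limma's adjusted p of 0.05 and dotted lines are the medians of all genes. On this deposited scale, which equal FPKM totals would shift upwards, all 10 lie between -1.95 and -0.72 in interphase, while in mitosis TUBA1A, TUBA1B and TUBB4B lie between -0.11 and 0.31 and did not pass.

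Whether the effect of the IP itself differed between the phases was tested as the difference of the 2 log2 fold changes. For 6 of the 10 genes the value was higher in mitosis than in interphase and for 0 lower (also 0 at an unadjusted p below 0.05), where 27.2% of all genes were called higher, 19.9% lower and 47.1% in either direction. The differences that passed were 1.66 for TUBA1B (SE 0.22, limma adjusted p 0.00049), 1.5 for TUBB4B (SE 0.19), 1.38 for TUBA1A (SE 0.20), 1.32 for TUBA1C (SE 0.15), 0.90 for TUBG1 (SE 0.21) and 0.43 for TUBB3 (SE 0.14, limma adjusted p 0.0343). A positive difference need not mean a higher level in the mitotic IP than in the interphase IP. Between the IP groups, TUBA1A (0.15) and TUBA1C (-0.27) did not pass, while without IP both were lower in mitosis (-1.23 and -1.58). TUBA1B (1.13), TUBB4B (2.21), TUBG1 (1.13) and TUBB3 (0.58) were called higher between the IP groups. For TUBA1B the authors' deposited table gives ratios of IP to total RNA of 0.267 and 0.319 in interphase and 0.879 and 0.974 in mitosis. For TUBB4B the ratios in the authors' deposited table are 0.410 and 0.457 in interphase and 1.25 and 1.23 in mitosis. By contrast, TUBB had ratios in the authors' deposited table of 0.547 and 0.673 in interphase and 0.499 and 0.624 in mitosis. Its difference was -0.12 (SE 0.20), that of TUBB6 0.03 (SE 0.20), that of TUBB2A 0.24 (SE 0.21) and that of TUBA4A 0.41 (SE 0.20), and none of the 4 passed.

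The 3 chromosome 12 α genes and TUBB4B kept a called positive difference under every alternative run, with values of 0.83, 1.41, 1.11 and 0.79 once length and GC trends were removed for TUBA1A, TUBA1B, TUBA1C and TUBB4B, and of 1.07, 1.36, 1.01 and 1.22 with equal FPKM totals. The other calls were less stable. With equal totals TUBG1 (0.76) and TUBB3 (0.15) were not called. TUBG1 went to 0.08 without those trends and TUBB3 changed sign to -0.32, neither passing, while TUBB2A (-0.61) and TUBB6 (-0.65) passed there with a negative sign. TUBB3 also missed the threshold after quantile normalization (0.23) and when interphase without IP replicate 1 (0.36), interphase IP replicate 1 (0.37), or any 1 of the 4 mitotic libraries (0.40 to 0.45) was left out. TUBA4A passed only without replicate 1 of mitosis without IP (0.59). After quantile normalization 5 genes were called higher and 1, TUBB (-0.60), lower.

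Mitosis and interphase were compared without IP for the level of tubulin mRNA. The phase cannot be told apart here from the thymidine release and STLC of the mitotic groups. In bulk RNA, fewer cells holding an RNA and less of it per cell cannot be told apart either. The α genes were lower in mitosis, 4 of 4 called, and 2 of the 5 β genes, TUBB4B and TUBB6, were higher, with no β gene called lower (0 also at an unadjusted p below 0.05). Over all genes 25.5% were called lower, 26.2% higher and 51.7% in either direction. TUBA1C fell most, from 124 ± 10.7 to 40.8 ± 1.53 FPKM (3.04-fold), and its log2 fold change was -1.58 (SE 0.11, limma adjusted p 1.39e-05). TUBA1A fell from 125 ± 16.5 to 52.7 ± 4.12 FPKM (-1.23, SE 0.14). TUBA1B, from 519 ± 41.0 to 360 ± 2.03 FPKM, had a smaller decrease (-0.53, SE 0.16, limma adjusted p 0.0208). It was not called when any 1 of the 4 libraries without IP was left out (-0.61 to -0.45), nor after quantile normalization (-0.54) or with equal FPKM totals (-0.55). Summed over the 3 genes, the level was 1.70-fold lower in mitosis. TUBA4A fell from 6.04 ± 0.358 to 3.15 ± 0.708 FPKM (-0.77, SE 0.14).

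TUBB6 rose from 121 ± 12.2 to 209 ± 19.2 FPKM (log2 fold change 0.78, SE 0.14, limma adjusted p 0.0019) and TUBB4B from 118 ± 17.2 to 193 ± 0.65 FPKM (0.71, SE 0.13). TUBB had 252 ± 24.9 and 246 ± 18.9 FPKM, overlapping in their libraries, and a log2 fold change of -0.03 (SE 0.14). TUBB2A (0.28, SE 0.15), TUBB3 (0.15, SE 0.10) and TUBG1 (0.23, SE 0.15) had higher means in mitosis, with libraries that did not overlap, but did not pass; with length and GC trends removed they did, at 0.68, 0.51 and 0.61. The α and β classes thus differed in their counts: the summed α level went from 775 ± 68.6 to 456 ± 3.92 FPKM and the summed β level from 580 ± 61.1 to 748 ± 41.4 FPKM. The ratio of summed α to summed β was 1.32 and 1.35 in the interphase libraries without IP and 0.584 and 0.639 in the mitotic ones, values that do not overlap and were given no test.

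Within the IP, mitosis against interphase, 6 of the 10 were called higher and 0 lower (2 lower at an unadjusted p below 0.05, TUBA1C and TUBA4A), where 35.8% of all genes were called higher, 25.6% lower and 61.4% in either direction. TUBB4B averaged 50.9 ± 3.58 FPKM in the interphase IP and 239 ± 2.64 FPKM in the mitotic IP, a 4.69-fold rise. Its log2 fold change of 2.21 (SE 0.13, limma adjusted p 3.24e-06) lay at percentile 99.0 of all genes. TUBA1B rose from 151 ± 7.13 to 333 ± 25.9 FPKM (1.13, SE 0.16) and TUBG1 from 2.74 ± 0.558 to 7.20 ± 1.00 FPKM (1.13, SE 0.15). TUBB6 (0.81), TUBB3 (0.58) and TUBB2A (0.52) were also called, the last not without interphase IP replicate 2 (0.45) or mitotic IP replicate 1 (0.34). TUBA1A (0.15) had overlapping libraries, and TUBB (-0.15), TUBA1C (-0.27) and TUBA4A (-0.36) had lower means. Quantile normalization added TUBB, TUBA1C and TUBA4A as lower calls, for 6 higher and 3 lower, and median centring added TUBA1C and TUBA4A. TUBA4A was also called lower, the 1 lower call beside 6 higher, with the replicate block, with a pseudocount of 0.1, with a mean FPKM of at least 1 and in a fit of these 4 libraries alone. With equal FPKM totals 4 were called higher and 2 lower (TUBA1C and TUBA4A). With length and GC trends removed, TUBB2A (0.07) and TUBB3 (0.19) were no longer called, and 4 were higher and 3 lower. This comparison shares its libraries with the effects of the IP above, so it is another view of the same values.

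**Figure D3:**
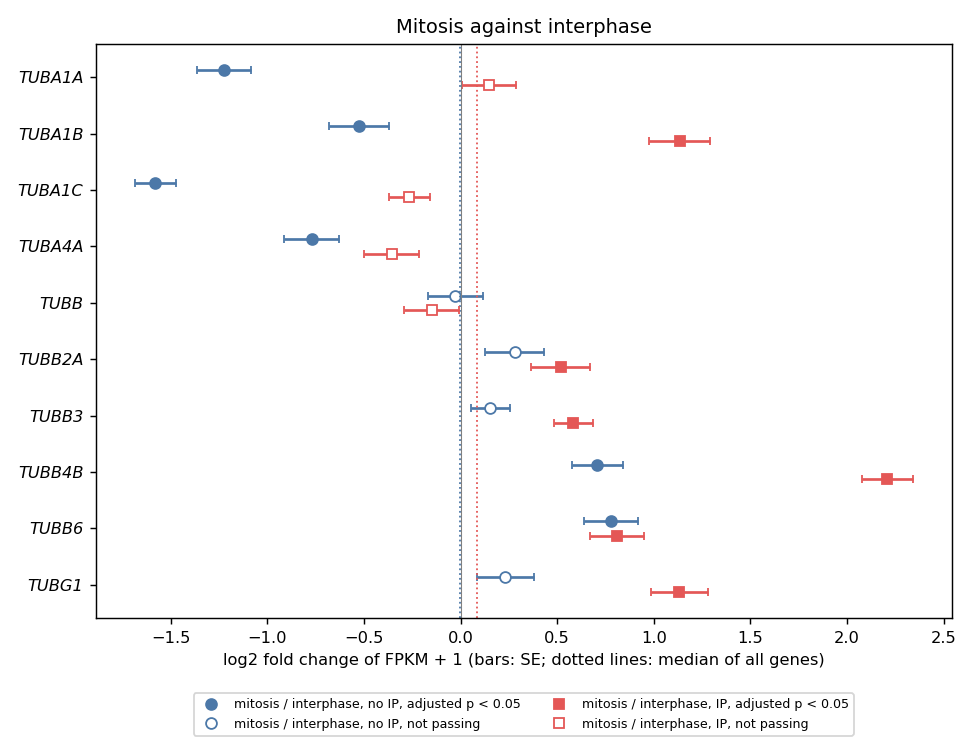
Log2 fold change of FPKM + 1 (horizontal axis) in mitosis against interphase for each tubulin gene, without IP (circles) and in the IP (squares), with the SE as bars; filled symbols passed limma's adjusted p of 0.05 and dotted lines are the medians of all genes. The 4 α genes lie to the left without IP, from -1.58 to -0.53, and TUBB4B in the IP lies farthest right at 2.21.

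The isotype make-up of the α and β sums varied between the groups, though the TUBA1B share in mitosis was nearly equal with and without IP. These shares are descriptions without a test, and for the α genes they depend on how shared reads were split. TUBA1B made up 67.1% ± 0.645 of the summed α FPKM in interphase without IP, 62.7% ± 0.760 in the interphase IP, 78.8% ± 0.231 in mitosis without IP and 79.2% ± 0.481 in the mitotic IP (SD, n = 2). Its share was thus higher in mitosis with and without IP. TUBB4B made up 20.3% ± 0.818 of the summed β FPKM in interphase without IP and 18.7% ± 1.35 in the interphase IP, then 25.8% ± 1.34 in mitosis without IP and 48.4% ± 0.333 in the mitotic IP. TUBB was the largest β share in the first 3 of these groups, at 43.4%, 56.0% and 32.9%, and TUBB4B was the largest in the mitotic IP, where TUBB had 27.9%. TUBB3 had a smaller share in the IP than without IP in both phases, 7.75% against 14.6% in interphase and 6.51% against 12.6% in mitosis.

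**Figure D4:**
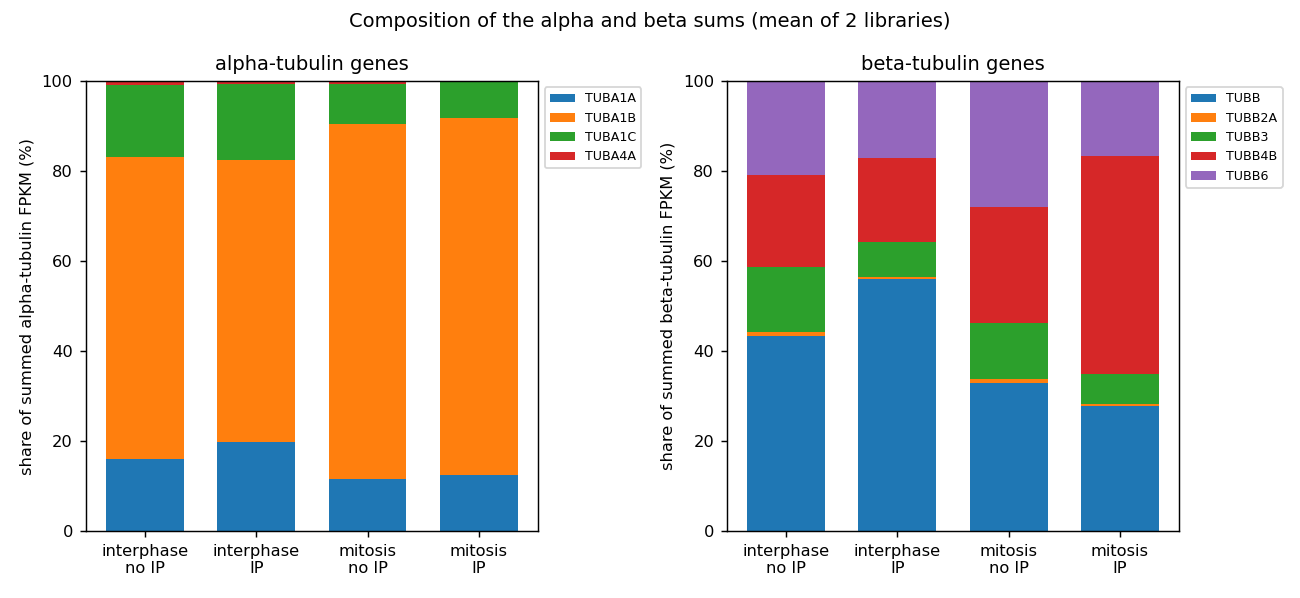
Share of each isotype in the summed α-tubulin FPKM (left) and the summed β-tubulin FPKM (right), in percent on the vertical axis, as stacked means of 2 libraries for the 4 groups. TUBA1B is the widest α band throughout, and the TUBB4B band takes 48.4% of the β sum in the mitotic IP.

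What the tubulin genes share beyond their name includes short, GC-rich transcripts. The median length of the longest annotated transcript was 2099 nt for the 10 genes and 3615 nt for the 13141 genes with annotation, and the median GC content was 57.8% against 47.6%. The 10 lay between percentiles 63.0 and 90.3 of GC content and between 11.6 and 42.6 of length. Removing the trends of the log2 values with both properties moved the median log2 fold change of the 10 from -1.40 to -0.48 in the interphase IP and from -0.88 to -0.43 in the mitotic IP. In that setting 6 of 10 were called lower in interphase (TUBA1A, TUBA1B, TUBA1C, TUBA4A, TUBB3 and TUBG1), and in mitosis 6 were called lower and 1, TUBB4B, higher.

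**Figure D5:**
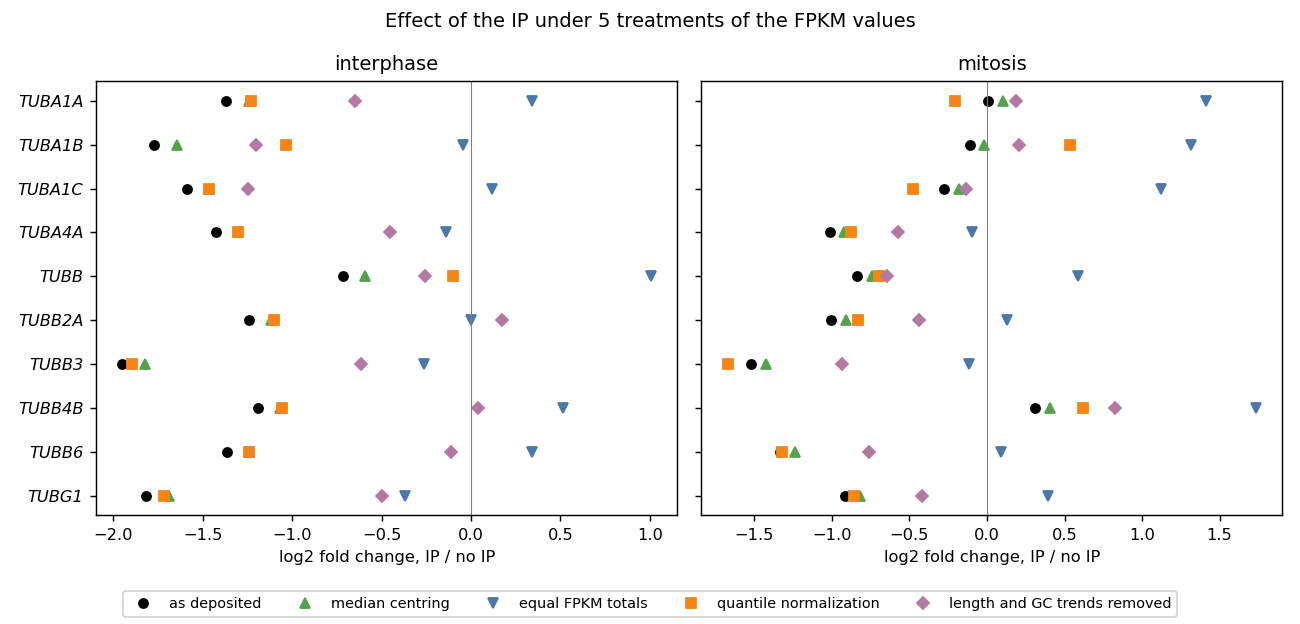
Log2 fold change in the hnRNP U IP against no IP (horizontal axis) of each tubulin gene in interphase (left) and mitosis (right), for FPKM as deposited and after median centring, scaling to equal FPKM totals, quantile normalization or removal of length and GC trends. With equal totals the interphase values lie between -0.37 and 1.01, and with the trends removed TUBB2A (0.17) and TUBB4B (0.04) lie past 0.

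Profiles were compared by the root-mean-square difference of centred log2 values over the 8 libraries, among 8032 genes with a mean of at least 5 FPKM. All tubulin rows and rows sharing the gene's interval were left out beforehand, so no tubulin could appear among the nearest. Of the genes left, those most like TUBA1B were ORAI1 (0.089), a plasma membrane calcium channel gene, PSMD13 (0.10), a proteasome subunit gene, and MRPS11 (0.11), a mitochondrial ribosomal protein gene. Those most like TUBB were PIM1, DNAJC1 and COPG1 (0.10 to 0.11), and those most like TUBG1 were TRABD, SLC37A4 and RAB5C (0.13 to 0.14).

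Genes that fold, modify and organise tubulin did not follow it as a block in the interphase IP. The counts of these lists stand against 37.6% of all genes called higher and 37.0% called lower. Of 22 genes of folding cofactors and the chaperonin, 12 were called lower and 5 higher, with a median log2 fold change of -0.79. ARL2, a small GTPase that works with cofactor D, fell from 119 ± 1.34 to 11.1 ± 1.16 FPKM (log2 fold change -3.32), and TBCEL, which destabilises tubulin, rose from 7.51 ± 0.995 to 24.6 ± 1.44 FPKM (1.60). Of 22 genes of microtubule dynamics, 14 were called higher and 5 lower, with a median of 0.55. KIF2A, a depolymerising kinesin, rose from 14.4 ± 1.44 to 72.6 ± 8.50 FPKM (2.25). Both lists held genes in both directions. In the mitotic IP the folding list had 8 higher and 10 lower (median -0.25) and the dynamics list 6 higher and 11 lower (-0.21), with 32.8% of all genes higher and 31.7% lower. In the difference between the IP effects, the folding list had 11 higher and 1 lower (0.63) and the dynamics list 1 higher and 10 lower (-0.43), with 27.2% of all genes higher and 19.9% lower.

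Of 19 genes of the γ-tubulin ring complex and augmin, 6 were called higher and 8 lower, with a median of 0.22. NEDD1, which recruits the ring complex to the spindle, rose from 24.5 ± 2.08 to 77.8 ± 0.699 FPKM in the interphase IP (log2 fold change 1.63), while MZT2A, a small ring complex subunit, fell from 63.3 ± 8.52 to 4.88 ± 0.426 FPKM (-3.44). Of 18 tubulin modifying enzymes, 5 were higher and 6 lower (median -0.05). AGTPBP1, a deglutamylase, rose from 8.67 ± 0.584 to 32.1 ± 4.8 FPKM (1.77), and the deacetylase gene SIRT2 fell from 17.2 ± 0.638 to 3.42 ± 0.127 FPKM (-2.04). Of 11 genes of tubulin mRNA autoregulation (TTC5, SCAPER and subunits of the CCR4-NOT deadenylase), 7 were higher and 1 lower (median 0.34). TTC5 itself was not called in the interphase IP (-0.17) or in mitosis without IP (0.095). It was called higher in the mitotic IP (0.39) and in the difference between the IP effects (0.56). The deadenylase gene CNOT6L rose from 5.01 ± 0.473 to 23.2 ± 1.65 FPKM (2.01), and CNOT3 was the one that fell, from 2.07 ± 0.00993 to 0.912 ± 0.0431 FPKM (-0.68).

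In the mitotic IP, where 32.8% of all genes were called higher and 31.7% lower, 7 of 19 ring complex and augmin genes were higher and 8 lower. Of 18 modifying enzymes 2 were higher and 6 lower, and of 11 autoregulation genes 8 and 3. In the difference between the IP effects these counts were 6 and 4, 2 and 5, and 3 and 5. There 27.2% of all genes were called higher and 19.9% lower.

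For mitosis against interphase without IP, where 26.2% of all genes were called higher and 25.5% lower, the same lists gave 2 higher and 4 lower of 22 folding genes, 12 higher and 3 lower of 22 dynamics genes, 9 higher and 7 lower of 19 ring complex and augmin genes, 5 higher and 4 lower of 18 modifying enzymes, and 6 higher and 1 lower of 11 autoregulation genes. KIF2C, a kinesin of the kinetochore, rose from 9.75 ± 2.20 to 72.6 ± 1.40 FPKM (log2 fold change 2.79), and MAPRE2, a plus-end tracking protein gene, fell from 5.57 ± 0.337 to 2.85 ± 0.101 FPKM (-0.77). CDK5RAP2, an activator of the ring complex, rose (1.53) and the augmin subunit gene HAUS4 fell (-0.76). HDAC6, a tubulin deacetylase, rose (1.36), and TTLL1, of the tyrosine ligase-like family, fell (-1.36). CNOT1, the scaffold of CCR4-NOT, rose from 18.9 ± 1.04 to 54.6 ± 0.641 FPKM (1.48), and CNOT6L fell (-0.33). Among folding genes TBCCD1 rose (0.38) and TBCA, which binds β-tubulin, fell (-0.95).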

How the data were processed

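The authors deposited a gene table labelled hg38, with FPKM values in 1 column for each of 8 libraries, per the file headers, and ratio columns that are quotients of FPKM columns of the same replicate number (all 80826 matched within a relative tolerance of 0.0001). TopHat and StringTie are named in the submitters' processing notes, with no role. A table of lncRNAs was not used here. The table holds no counts, so the count test planned for that case was not run. No value is 0, and depth is unknown, so no interval is given. The test was limma 3.58.1 in R 4.3.3 (lmFit, eBayes with trend) on log2(FPKM + 1), all 13471 genes, 8 libraries, 4 groups, 4 residual degrees of freedom, no filter, no replicate block. Fold changes on this scale understate changes of low genes. Library groups come from the sample titles. Length and GC content are of the longest GENCODE 29 transcript (12678 genes matched by symbol, 463 by an older one, 330 unmatched), with trends fitted by loess (span 0.3). Scaling to equal FPKM totals was added after the data were seen. Named genes are the 10 members, other tubulin rows, the called gene with the largest log2 fold change in each direction of each list, for interphase IP and mitosis without IP, and the 3 nearest profiles outside the tubulin rows. Values of TTC5 are given besides, as the factor introduced at the start. The members and lists were chosen with earlier results of these data known. The model was run on simulated data with changes in the interphase IP only and no shift in scale between libraries. That run cannot test the choice of scale. A few items that these rules would print are not reported here.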

Additional observations from a re-analysis of the deposited data

Results flagged for a closer look

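For 6 tubulin genes the effect of the hnRNP U IP differed between mitosis and interphase by the test of that difference (limma, adjusted p below 0.05 over all genes), where 47.1% of all genes were called and 27.2% called higher. The difference of log2 fold changes was 1.66 for TUBA1B, 1.5 for TUBB4B, 1.38 for TUBA1A, 1.32 for TUBA1C, 0.90 for TUBG1 and 0.43 for TUBB3, positive in replicate 1 and in replicate 2 for each. Between the IP groups, mitosis against interphase, TUBA1A (0.15) and TUBA1C (-0.27) did not pass, and the other genes named were called higher. Without IP, TUBA1A (-1.23) and TUBA1C (-1.58) were lower in mitosis. TUBG1 and TUBB3 were not called once length and GC trends were removed (0.08 and -0.32) or with equal FPKM totals (0.76 and 0.15). With 2 libraries in each group, no single library could be tested as standing apart from its group.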

How the results depend on the processing

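Of 790 values of single tubulin genes under an alternative, 687 kept their direction and side of the threshold. Many of them could not change direction. The replicate block, the filter on mean FPKM and the fit of only the libraries compared leave the log2 fold change as it was. So does leaving out a library of a group that is not compared. With equal FPKM totals 21 values were kept, 13 changed sign, 12 lost a call and 4 gained one. With length and GC trends removed these were 28, 9, 6 and 7. Removing length and GC trends left 6 of 10 genes called in the interphase IP, in place of 10, and changed the sign of TUBB2A (0.17) and TUBB4B (0.036) there, of TUBA1B (0.20) in the mitotic IP, of TUBA4A (-0.12), TUBB2A (-0.61), TUBB3 (-0.32) and TUBB6 (-0.65) in the difference between the IP effects, of TUBB (0.058) in mitosis without IP and of TUBA1A (-0.14) between the IP groups. Scaling to equal FPKM totals, chosen after seeing the data, left 2 of 10 called in the interphase IP and 4323 of all genes, in place of 6963, in mitosis without IP. It changed the sign of TUBA1A (0.34), TUBA1C (0.12), TUBB (1.01), TUBB4B (0.52) and TUBB6 (0.34) in the interphase IP, of TUBA1B (1.32), TUBA1C (1.12), TUBB (0.59), TUBB2A (0.13), TUBB6 (0.088) and TUBG1 (0.39) in the mitotic IP, of TUBB6 (-0.25) in the difference and of TUBA1A (-0.16) between the IP groups. Quantile normalization changed it for TUBA1A (-0.21) and TUBA1B (0.53) in the mitotic IP, TUBB6 (-0.079) in the difference and TUBA1A (-0.092) between the IP groups. Leaving out 1 library did so for values near 0: TUBA1A in the mitotic IP (-0.15 to 0.16) and between the IP groups (-0.0092 to 0.31), TUBB6 in the difference (-0.084 to 0.15) and TUBB in mitosis without IP (-0.13 to 0.073). The cause was not tested. Every group has a library of each replicate number. Deviations of same-numbered libraries correlated positively between groups, at 0.0883 to 0.528. Between IP and no IP the value was 0.277 in interphase and 0.528 in mitosis. The main fit did not take same-numbered libraries as pairs, and the labels do not settle whether they are. With the number as a replicate block, 8 of 10 genes were called in the mitotic IP and 7 between the IP groups, in place of 7 and 6 (TUBB4B gained as higher and TUBA4A as lower), and the other counts stayed at 10, 6 and 6. Depth is unknown, so the precision of low genes such as TUBA4A and TUBB2A rests on 2 libraries a group.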

Other observations

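Of the 5 other rows of the tubulin superfamily, TUBG2 and TUBB2B were called lower in the interphase IP like the 10 genes, and TUBD1, TUBE1 and TUBA3FP were not called there. Values are FPKM as deposited. TUBD1, the gene of δ-tubulin, a centriole protein, had 1.53 and 1.85 FPKM in interphase without IP and 2.48 and 1.82 FPKM in the interphase IP, which overlapped. In mitosis it had 2.24 and 2.86 FPKM without IP and 5.82 and 5.8 FPKM in the IP, a log2 fold change of 0.94 (SE 0.15, limma adjusted p 0.000476), and its effect of the IP was higher in mitosis than in interphase by 0.72 (SE 0.21, limma adjusted p 0.0199). TUBE1, the gene of ε-tubulin, shares its interval with FAM229B. TUBE1 had 3.43 and 4.32 FPKM in mitosis without IP and 5.00 and 6.65 FPKM in the mitotic IP (log2 fold change 0.48, SE 0.15, limma adjusted p 0.0219). TUBD1 and TUBE1 were thus higher in the mitotic IP, where 7 of the 10 tubulin genes and 31.7% of all genes were called lower. TUBA3FP was also called higher there (log2 fold change 0.32) and TUBG2 lower (-0.45), both at levels below the pseudocount of 1. TUBB2B was not called. The transcribed pseudogene TUBA3FP, which shares its interval with THAP7 and THAP7-AS1, had 0.980 and 0.962 FPKM in interphase without IP. In mitosis without IP it had 0.134 and 0.240 FPKM (log2 fold change -0.73, SE 0.10).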
